A study of Mus musculus with 12 samples.

Results

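The proteasome subunit genes of mouse fibroblasts, with the factors that assemble and activate the particle, were followed across a clone labelled as a U17 knockdown, a clone labelled as overexpressing U17 and WT cells. Members were the genes whose single annotated array symbol reads Psm, 1 of the letters a to g, and a digit, with the probe of highest mean level for each gene. The pattern matched 86 probes of 49 symbols, of which 47 are proteasome genes. The other 2, Psmc3ip and Psme3ip1, match by name only and are left out of every count. A probe was kept where it reached the detection level on at least 4 of the 12 arrays, which left 37 proteasome genes among 9108 genes tested. The rule for members reads the symbol alone, but the gene set was chosen with earlier results of these data known. The choice of probe and the detection filter used the measured values of all 12 arrays.

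RNA came from NIH-3T3 cells, an immortalised line of mouse embryonic fibroblasts, on Illumina bead arrays with 4 arrays per group. The U17 KD cells are the ShSnhg3 stable clone, the U17 OE cells are the pMDβglobinU17b stable clone, and the WT cells have no construct in their labels. All 3 groups, WT included, were grown for 24 hours in LPDS medium, which by the common use of that abbreviation contains lipoprotein-deficient serum. U17 is a small nucleolar RNA of the H/ACA class, processed from an intron of the Snhg3 transcript, and the series was made to find messenger RNAs that depend on it. Each manipulated group is 1 stable clone, so an effect of the U17 level and a trait of the clone cannot be told apart. The labels call the arrays biological replicates and do not say whether they came from separate cultures, so p-values cover the spread between these arrays only. In such bulk RNA, fewer cells with a transcript and less transcript per cell cannot be told apart.

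The proteasome degrades proteins tagged with ubiquitin. Its core particle is a barrel of outer alpha rings, which gate the entrance, and inner beta rings, which hold the proteolytic sites. The regulatory particle caps the core, and its base unfolds substrates with a ring of ATPases while its lid holds a deubiquitinase. In fibroblasts, interferon-gamma replaces the catalytic subunits Psmb5, Psmb6 and Psmb7 with the immunoproteasome subunits Psmb8, Psmb9 and Psmb10 and raises the activator pair Psme1 and Psme2, which changes the peptides available to MHC class I molecules.

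Of the 37 tested proteasome genes, 14 were called in U17 KD against WT at a Benjamini-Hochberg adjusted p under 0.05 from limma's linear model over all kept probes. That is 37.8% of the members, against 40.5% of all genes tested, so the share is near the background. The 14 comprise 5 higher and 9 lower genes, against 20.0% higher and 20.4% lower over all genes. In U17 OE against WT, 2 of 37 were called, 5.41% against a background of 12.8%. The 2 comprise 1 higher gene, Psmd10, and 1 lower gene, Psmc1, against 6.48% higher and 6.37% lower over all genes. The count was 5 without U17 OE replicate 3, 4 without U17 OE replicate 1, and 1 without WT replicate 1 or WT replicate 3. In these runs the called share of all genes moved the same way. It was above the main run without either of these U17 OE arrays and below it without either WT array. Leaving out any 1 of the other arrays also lowered this share, while the count of proteasome genes stayed at 2. Changes were small: 0 of 37 were called with a difference of 2-fold or more in either clone, against 5.48% of all genes in U17 KD and 1.04% in U17 OE. The median absolute log2 difference from WT was 0.14 for the members in U17 KD, against 0.25 for all genes, and 0.10 in U17 OE, against 0.15 for all genes. The signed medians were -0.04 for the members and -0.02 for all genes in U17 KD, and -0.02 and -0.01 in U17 OE.

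**Figure D1:**
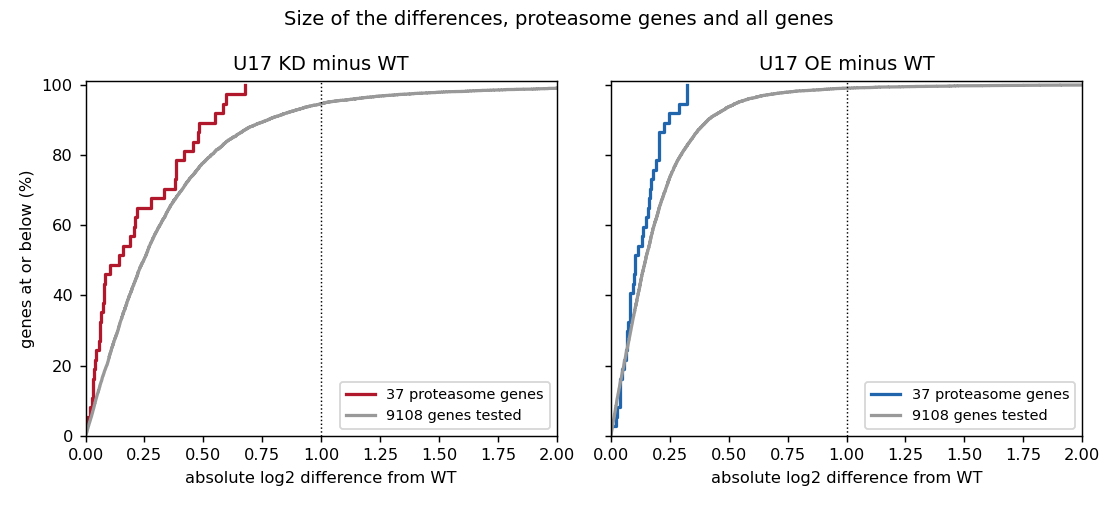
Cumulative share of genes (percent) against the absolute log2 difference from WT, for the 37 proteasome genes (coloured) and the 9108 genes tested (grey), in U17 KD (left) and U17 OE (right). The dotted line marks a 2-fold difference, and every proteasome gene lies below it, the largest at 0.68 in U17 KD and 0.32 in U17 OE.

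By role, the counts in U17 KD are read against the 20.0% of all genes called higher and 20.4% called lower, and no difference between roles was tested. Of the 14 measured regulatory particle genes with a Psmc or Psmd symbol, 7 fell and 0 rose, with a median log2 difference of -0.21. Sem1, a small lid subunit outside the symbol rule, rose and is described with the associated genes. In the core particle, 1 of 11 fell and 0 rose, with a median of -0.03. The immunoproteasome had 1 of 2 measured genes higher, the base assembly chaperones (Psmd5, Psmd9 and Psmd10) 2 of 3 higher, and the activators 2 of 4 higher and 1 lower. None of the 3 measured core assembly chaperones was called in U17 KD by limma, and 0 of them had an unadjusted p under 0.05.

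**Figure D2:**
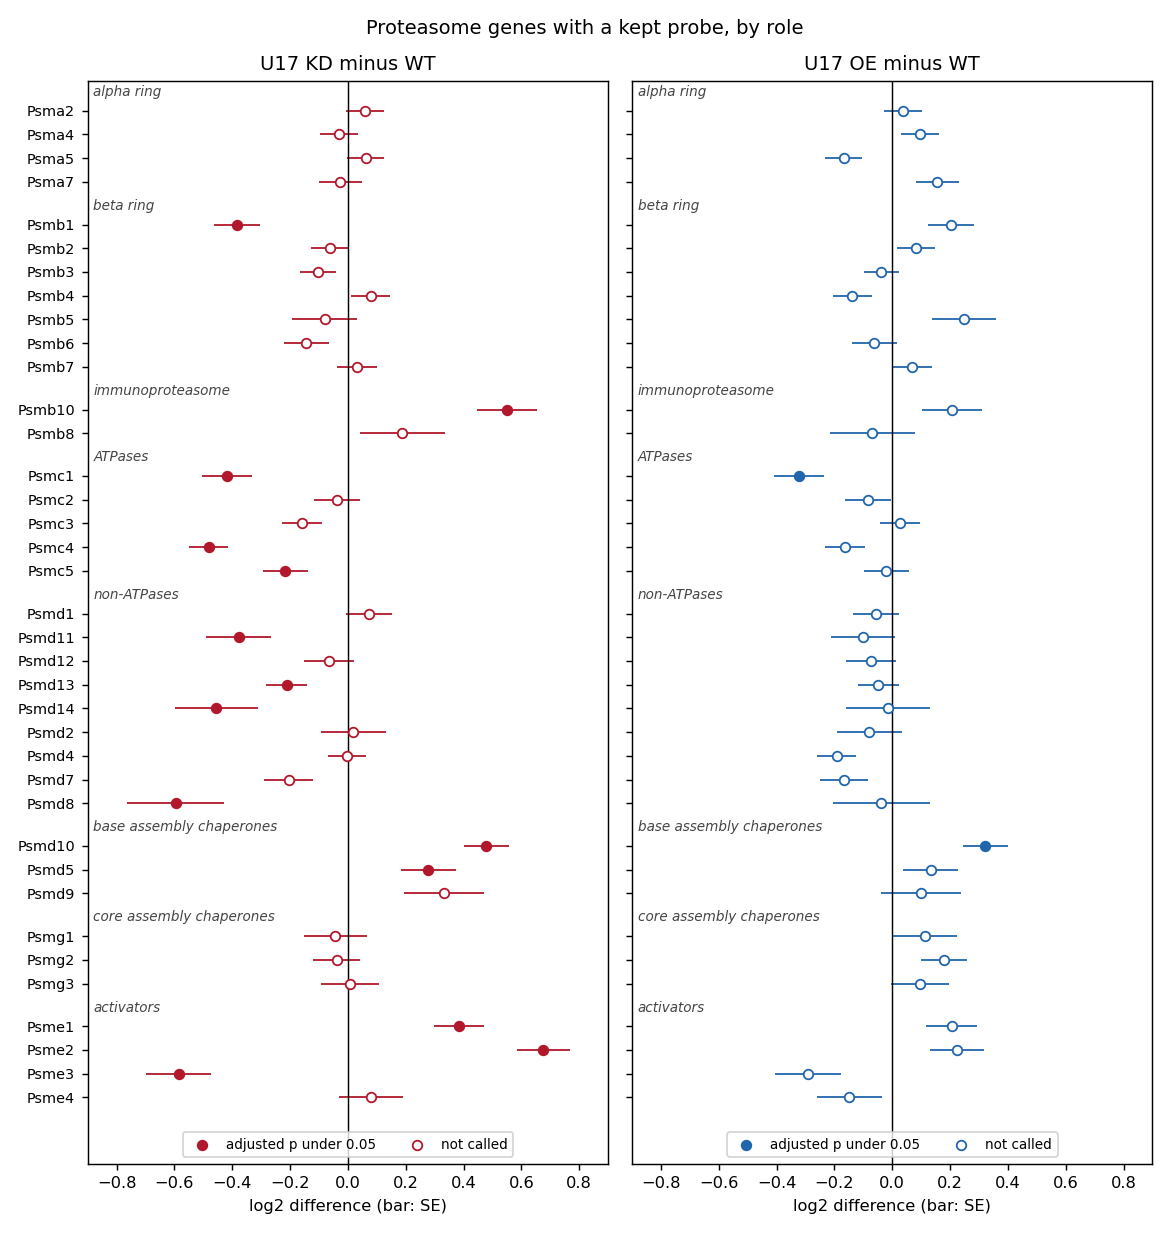
Log2 difference from WT with its standard error (horizontal bars) for each of the 37 proteasome genes, grouped by role, in U17 KD (left) and U17 OE (right). Filled points passed the test, 14 in U17 KD and 2 in U17 OE, and the called regulatory particle genes in U17 KD all lie left of 0.

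Between 15820 and 15832 probes reached the detection level per array, with 1 detection level applied to the deposited normalized values. U17 OE replicate 3 stood apart, with an SD of differences from its group mates of 0.393 on the log2 scale over all kept probes, against 0.182 to 0.273 on the other arrays. Over the proteasome genes alone the same SD was 0.233 on that array and 0.0745 to 0.198 on the others. No probe was named Snhg3, Snora73a or Snora73b, so the level of U17 and its host could not be checked here. All 10 listed fibroblast markers had a kept probe, and 8 of them rose in U17 KD, against 20.0% of all genes called higher. Of 9 blood cell markers, 7 (Ptprc among them) were detected on no array, and the summed intensity of the list was 491 to 557 in U17 KD, 632 to 796 in U17 OE and 441 to 543 in WT. All 5 adipocyte markers were undetected on every array, and the summed muscle markers reached 69.0 to 103 in U17 KD, 55.2 to 79.3 in U17 OE and 159 to 216 in WT. Of the muscle markers, Acta1 was detected on 4 WT arrays and 0 clone arrays, so the size of its difference from WT is not given. Myog and Des were not called in either clone, and Myod1 was detected on 0 arrays. The summed epithelial and endothelial markers reached 65.3 to 106 in U17 KD, 84.2 to 94.6 in U17 OE and 83.1 to 117 in WT. The part of these differences in the proteasome values was not tested.

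Psme1 and Psme2 encode the interferon-inducible activator pair and lie near each other on chromosome 14. Their promoter windows are shown because both genes moved in the same direction in U17 KD. Each window covers 250 bases before and 50 after an annotated start on GRCm38.p6 from RefSeq, written 5′ to 3′ along the gene. It is chr14:55578244-55578543 on the plus strand for Psme1 and chr14:55591052-55591351 on the minus strand for Psme2, which has a further, overlapping window that is not shown. Capitals mark the core of an interferon-stimulated response element (GAAA, any 2 bases, then GAAA), searched on both strands.
Psme1: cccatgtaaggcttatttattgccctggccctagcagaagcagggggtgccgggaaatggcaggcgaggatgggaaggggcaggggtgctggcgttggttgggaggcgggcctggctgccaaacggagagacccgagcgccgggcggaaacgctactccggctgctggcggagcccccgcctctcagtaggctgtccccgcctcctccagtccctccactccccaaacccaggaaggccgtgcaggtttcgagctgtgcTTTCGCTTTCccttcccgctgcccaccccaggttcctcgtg
Psme2: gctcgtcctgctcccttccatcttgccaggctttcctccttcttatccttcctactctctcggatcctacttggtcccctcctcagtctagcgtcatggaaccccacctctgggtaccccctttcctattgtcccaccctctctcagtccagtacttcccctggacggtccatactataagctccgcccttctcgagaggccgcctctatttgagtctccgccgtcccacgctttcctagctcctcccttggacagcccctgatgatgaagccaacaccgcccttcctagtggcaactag
The Psme1 window holds this motif once, at bases 10 to 19 after the start and on the opposite strand, and the Psme2 windows do not hold these letters. The motif was found in 3.44% of 32851 promoter windows. Counted per gene over any of its windows, it was found in 3.99% of 27025 gene symbols and in 5 of the 39 proteasome genes with a window (Psmb3, Psmd4, Psmd9, Psme1 and Psmg4). The gamma-activated site TTCNNNGAA, which is its own reverse complement, was found in 8.3% of all windows, in 9.55% of gene symbols and in 3 of the 39 (Psmb8, Psmd2 and Psmg1). A match is a string of letters and was not tested as a binding site.

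Psme2 rose most among the proteasome genes in U17 KD. Its log2 intensity on the 4 arrays was 9.95, 10.004, 10.01 and 10.14 in U17 KD cells, 9.48, 9.48, 9.64 and 9.70 in U17 OE cells, and 9.39, 9.16, 9.40 and 9.44 in WT cells. Every U17 KD array exceeded every array of the other groups, and every U17 OE array lay above every WT array. The U17 KD minus WT difference was 0.68 ± 0.09 on the log2 scale (SE, 4 arrays each), a 1.60-fold level, with an adjusted p of 1.21e-05. The U17 OE minus WT difference of 0.22 ± 0.09 was not called (adjusted p = 0.137). A duplicate locus, Psme2b, is annotated in RefSeq, and cross-hybridisation was not tested.

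Psme1, its partner, gave 11.37, 11.26, 11.17 and 11.26 in U17 KD, 10.89, 11.26, 11.10 and 11.10 in U17 OE, and 10.99, 10.77, 10.80 and 10.97 in WT. All U17 KD arrays lay above all WT arrays, while U17 OE overlapped both. It was 1.30-fold higher in U17 KD than in WT, with a log2 difference of 0.38 ± 0.09 and an adjusted p of 0.0019. A second Psme1 probe also rose, by 0.34 ± 0.11 (adjusted p = 0.0215).

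Psme3 encodes a nuclear activator of the same family that acts without ubiquitin and forms rings of its own. It moved the other way, with 10.23, 10.33, 10.34 and 10.27 in U17 KD, 10.28, 10.64, 10.92 and 10.50 in U17 OE, and 10.88, 11.09, 10.71 and 10.82 in WT. Every U17 KD array lay below every WT array, and U17 OE replicate 3, the array that stood apart, was the highest of its group. The U17 KD minus WT difference was -0.58 ± 0.11, so the U17 KD level was 0.667 times that of WT (adjusted p = 0.000444). In U17 OE against WT the difference was -0.29 ± 0.11 and not called (adjusted p = 0.111), and without U17 OE replicate 3 it was called (adjusted p = 0.00441). Within each array, Psme2 minus Psme3 was 1.26 higher in U17 KD and 0.51 higher in U17 OE than in WT on the log2 scale, a description of unequal change with no test of its own.

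Psme4 encodes a large nuclear activator linked to histone degradation. It ranged over 11.65, 11.67, 11.89 and 11.77 in U17 KD, 11.73, 11.60, 11.14 and 11.58 in U17 OE, and 11.52, 11.85, 11.74 and 11.54 in WT, with the groups overlapping. Its U17 KD minus WT difference of 0.08 had a 95% interval of -0.17 to 0.33 and was not called. Psmf1, the inhibitor of the core, had no probe of that name.

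Psmb10, the immunoproteasome subunit that takes the place of Psmb7, rose in U17 KD. Its values were 10.62, 10.62, 10.48 and 10.55 in U17 KD, 10.12, 10.16, 10.17 and 10.45 in U17 OE, and 10.25, 9.83, 9.87 and 10.11 in WT. The U17 KD arrays lay above all others, and U17 OE replicate 4 stood above its group mates. The U17 KD minus WT difference was 0.55 ± 0.10, a 1.47-fold level (adjusted p = 0.000321), and a second probe rose by 0.53 ± 0.11 (adjusted p = 0.000901). In U17 OE the difference from WT was 0.21 ± 0.10 and not called.

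The other immunoproteasome subunits were close to the detection level, which is 30.5 on the linear scale. Psmb8 was detected on 3 U17 KD arrays, 1 U17 OE array and 1 WT array, with linear values between 20.0 and 41.5. Its log2 difference from WT was 0.19 in U17 KD (95% interval -0.14 to 0.52) and -0.07 in U17 OE (95% interval -0.40 to 0.26), and neither was called. Psmb9 was detected on 2 arrays, 1 of U17 KD and 1 of WT, and was not tested.

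The constitutive counterparts were not called against WT in either clone. Psmb5, the chymotrypsin-like subunit, ranged from 8.55 to 8.85 in U17 KD, 8.74 to 9.28 in U17 OE and 8.70 to 8.83 in WT, and differed from WT by -0.08 in U17 KD (95% interval -0.33 to 0.17) and by 0.25 in U17 OE. Psmb6, the caspase-like subunit, ranged from 12.55 to 12.76 in U17 KD, 12.75 to 12.77 in U17 OE and 12.63 to 12.99 in WT, and differed by -0.14 in U17 KD (95% interval -0.32 to 0.03) and by -0.06 in U17 OE. Psmb7, the trypsin-like subunit, ranged from 12.99 to 13.09 in U17 KD, 12.97 to 13.18 in U17 OE and 12.93 to 13.13 in WT, and differed by 0.03 in U17 KD (95% interval -0.12 to 0.19) and by 0.07 in U17 OE. The groups overlapped for all 3. RefSeq annotates retrocopies or pseudogenes of all 3 and of Psma5, and cross-hybridisation to them was not tested.

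**Figure D3:**
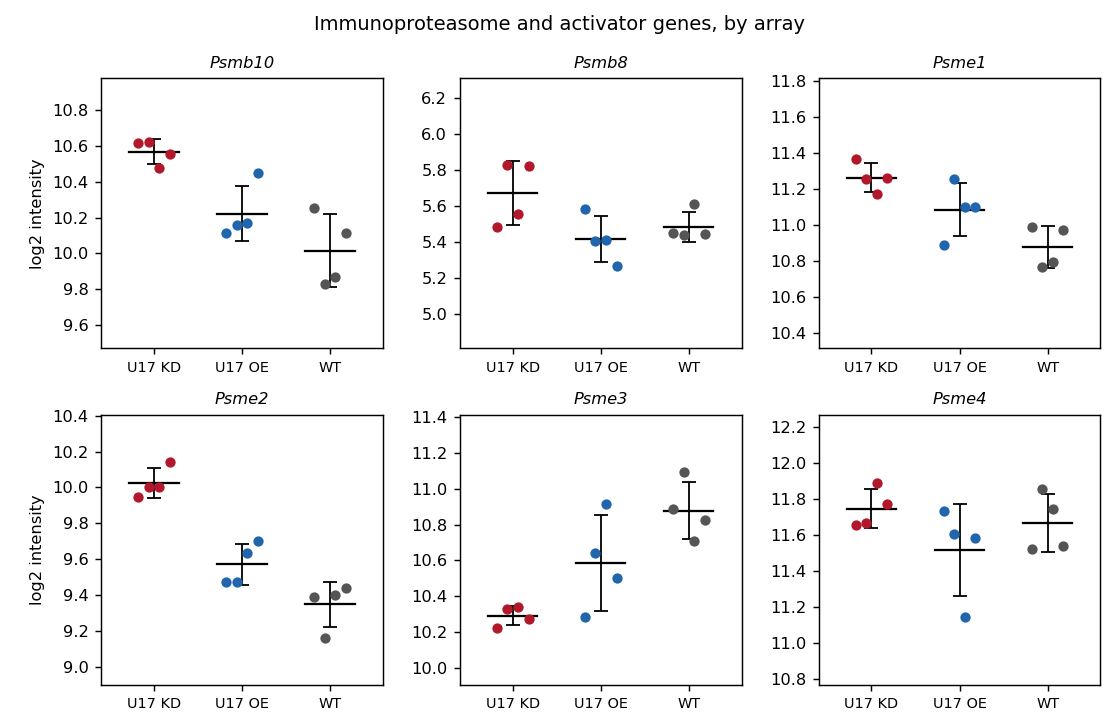
Log2 intensity on each array (points) with the group mean and SD (bars) for the immunoproteasome genes with a kept probe and for the 4 activators, in U17 KD, U17 OE and WT. Psmb10, Psme1 and Psme2 are higher in U17 KD than on any WT array and Psme3 is lower, while Psmb8 and Psme4 overlap between groups.

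Psmb1, a beta ring subunit without a proteolytic site, was the core gene with the largest difference. It gave 13.13, 12.99, 13.00 and 12.89 in U17 KD, 13.43, 13.60, 13.70 and 13.63 in U17 OE, and 13.54, 13.32, 13.23 and 13.46 in WT. All U17 KD arrays were below all arrays of both other groups, and U17 OE overlapped WT. The U17 KD minus WT difference was -0.38 ± 0.08, or 1.31-fold lower (adjusted p = 0.000875). The U17 OE minus WT difference had the opposite sign, 0.20 ± 0.08, and was not called (adjusted p = 0.117). Psmb2, Psmb3 and Psmb4, the other beta ring subunits without a counterpart in the immunoproteasome, differed from WT by -0.10 to 0.08 in U17 KD and -0.14 to 0.08 in U17 OE, and none was called.

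In the alpha ring, 4 of 7 genes had a kept probe, and limma called 0 of them in either clone against WT, with 0 at an unadjusted p under 0.05 in U17 KD and 1 in U17 OE. Their log2 differences from WT lay between -0.03 and 0.06 in U17 KD and between -0.17 and 0.16 in U17 OE. Psma5 had the largest absolute difference of the ring. Its values were 14.38, 14.24, 14.11 and 14.20 in U17 KD, 14.002, 14.09, 13.95 and 13.97 in U17 OE, and 14.20, 14.14, 14.17 and 14.17 in WT. The U17 OE arrays were all below the WT arrays and the U17 KD arrays spread to both sides of WT. Its difference from WT was 0.06 ± 0.06 in U17 KD and -0.17 ± 0.06 in U17 OE (adjusted p = 0.101).

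Among the ATPases that unfold substrates, Psmc1, Psmc4 and Psmc5 fell in U17 KD, out of 5 measured. Psmc4 gave 12.40, 12.43, 12.35 and 12.38 in U17 KD, 12.81, 12.56, 12.73 and 12.73 in U17 OE, and 12.81, 12.82, 12.94 and 12.91 in WT. Every U17 KD array lay below every other array, with an SD of 0.03 within the group. The U17 KD minus WT difference was -0.48 ± 0.07, with U17 KD at 0.716 times the WT level (adjusted p = 1.85e-05), and that of U17 OE was -0.16 ± 0.07 and not called (adjusted p = 0.144).

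Psmc1 was lower than WT in both clones. It gave 10.56, 10.63, 10.57 and 10.61 in U17 KD, 10.80, 10.77, 10.53 and 10.67 in U17 OE, and 11.15, 10.84, 11.12 and 10.95 in WT. All 8 clone arrays lay below all 4 WT arrays. The difference from WT was -0.42 ± 0.09 in U17 KD (adjusted p = 0.000808) and -0.32 ± 0.09 in U17 OE (adjusted p = 0.0198). The U17 OE call was lost without U17 OE replicate 4, WT replicate 1 or WT replicate 3, with an adjusted p of up to 0.0776 over the alternatives. Psmc5 fell by 0.22 ± 0.08 in U17 KD (adjusted p = 0.0359). Its values were 11.76 to 11.89 in U17 KD, 11.86 to 12.14 in U17 OE and 11.95 to 12.11 in WT, so U17 KD and WT did not overlap. That call did not survive leaving out U17 KD replicate 1, 2 or 4 or WT replicate 1 or 2, and a second Psmc5 probe had -0.13 (adjusted p = 0.255).

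The promoter windows of Psmc1 and of Psmd10, a base assembly chaperone, are shown because these are the 2 proteasome genes called in both clones against WT. Capitals mark CCAAT or its reverse complement, the box bound by the NF-Y complex. The windows are chr12:100109952-100110251 on the plus strand for Psmc1 and chrX:140956662-140956961 on the minus strand for Psmd10, on GRCm38.p6 from RefSeq.
Psmc1: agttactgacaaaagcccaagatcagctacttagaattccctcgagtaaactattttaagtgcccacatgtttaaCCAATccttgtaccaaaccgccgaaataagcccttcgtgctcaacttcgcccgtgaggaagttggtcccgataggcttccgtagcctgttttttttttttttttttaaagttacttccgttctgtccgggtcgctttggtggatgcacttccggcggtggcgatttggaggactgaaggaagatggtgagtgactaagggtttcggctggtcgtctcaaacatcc
Psmd10: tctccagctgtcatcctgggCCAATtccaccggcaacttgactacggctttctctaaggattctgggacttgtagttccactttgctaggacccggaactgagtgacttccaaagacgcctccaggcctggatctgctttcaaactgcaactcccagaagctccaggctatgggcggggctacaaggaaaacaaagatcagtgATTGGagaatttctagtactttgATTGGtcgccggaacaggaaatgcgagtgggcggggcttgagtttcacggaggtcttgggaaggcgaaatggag
Psmc1 holds the box once, at bases -175 to -171 from its start, and Psmd10 holds it 3 times. The box was found in 37.4% of all windows, in 41.1% of gene symbols and in 14 of the 39 proteasome genes with a window. The antioxidant response element core TGACNNNGC was found in 12.4% of all windows, in 14% of gene symbols and in 6 of the 39 (Psmb5, Psmb6, Psmc6, Psmd12, Psmd9 and Psme4).

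Of the 9 measured non-ATPase subunits with a Psmd symbol, 4 were lower in U17 KD and 0 higher, against 20.4% lower and 20.0% higher over all genes. Psmd8, also in the lid, had the largest difference, with 6.29, 6.05, 6.32 and 6.26 in U17 KD, 7.10, 7.09, 6.43 and 6.53 in U17 OE, and 6.81, 6.53, 6.94 and 7.03 in WT. All U17 KD arrays were below the others, and the U17 OE arrays fell into a high and a low pair around WT. Its U17 KD minus WT difference was -0.60 ± 0.17, or 1.51-fold lower (adjusted p = 0.00836).

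Psmd14, the lid deubiquitinase that removes ubiquitin chains from substrates, had 7.36, 7.13, 7.20 and 7.27 in U17 KD, 7.70, 7.95, 7.34 and 7.72 in U17 OE, and 8.07, 7.66, 7.60 and 7.45 in WT. The U17 KD arrays lay below all WT arrays, and WT replicate 1 was the highest. Its difference was -0.45 ± 0.14 (adjusted p = 0.0187). The call was lost without U17 KD replicate 2 or WT replicate 1, and a second probe had -0.34 (adjusted p = 0.0749).

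Psmd11, a lid subunit that contacts the base and the core, fell by 0.38 ± 0.11 in U17 KD (adjusted p = 0.0122). It gave 8.88, 9.04, 8.78 and 9.04 in U17 KD, 9.01, 9.33, 9.24 and 9.27 in U17 OE, and 9.60, 9.26, 9.26 and 9.13 in WT. U17 KD and WT did not overlap, and without WT replicate 1, the highest array, the adjusted p was 0.0582. Psmd13, another lid subunit, fell by 0.21 ± 0.07 (adjusted p = 0.0246), a call lost without U17 KD replicate 1 or 4 or WT replicate 2 or 3. It ranged from 12.83 to 13.08 in U17 KD, 12.98 to 13.19 in U17 OE and 13.10 to 13.16 in WT, so U17 KD lay just below WT. Psmd7, a lid subunit, had a difference of -0.20 in U17 KD and was not called (adjusted p = 0.0663), and Psmd1, Psmd2, Psmd4 and Psmd12 differed from WT there by -0.06 to 0.07. In U17 OE, limma called 0 of the 9 non-ATPases, with 1 at an unadjusted p under 0.05 (Psmd4).

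The base assembly chaperones are not part of the finished particle and hold the ATPases while the base is put together. Psmd10, also known as gankyrin, rose in both clones, the only proteasome gene of the 37 to do so by limma. It gave 11.50, 11.53, 11.42 and 11.52 in U17 KD, 11.17, 11.40, 11.38 and 11.40 in U17 OE, and 11.12, 11.02, 11.01 and 10.90 in WT. Neither clone overlapped WT, and U17 OE replicate 1 was the lowest clone array. The difference from WT was 0.48 ± 0.08 in U17 KD (adjusted p = 8.05e-05) and 0.32 ± 0.08 in U17 OE (adjusted p = 0.0103). Its other 2 probes also rose, by 0.60 and 0.45 in U17 KD and by 0.46 and 0.39 in U17 OE, with adjusted p-values of 2.42e-05 and 0.00734 in U17 KD and 0.00181 and 0.0458 in U17 OE.

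Psmd5 rose by 0.28 ± 0.10 in U17 KD (adjusted p = 0.0285), with 10.41, 10.43, 10.56 and 10.38 in U17 KD, 10.50, 10.08, 10.18 and 10.44 in U17 OE, and 10.21, 10.17, 10.07 and 10.22 in WT. U17 KD lay above WT on every array, and the call was lost without U17 KD replicate 2 or 3 or WT replicate 3. Psmd9 was not called, with a difference of 0.33 ± 0.14 (adjusted p = 0.0678) in U17 KD. It ranged from 7.66 to 7.84 in U17 KD, 7.30 to 7.74 in U17 OE and 7.13 to 7.71 in WT, and the groups overlapped. The core assembly chaperone with the largest difference from WT was Psmg2, which with Psmg1 helps to build the alpha ring. It differed from WT by -0.04 in U17 KD and 0.18 in U17 OE (adjusted p = 0.176).

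**Figure D4:**
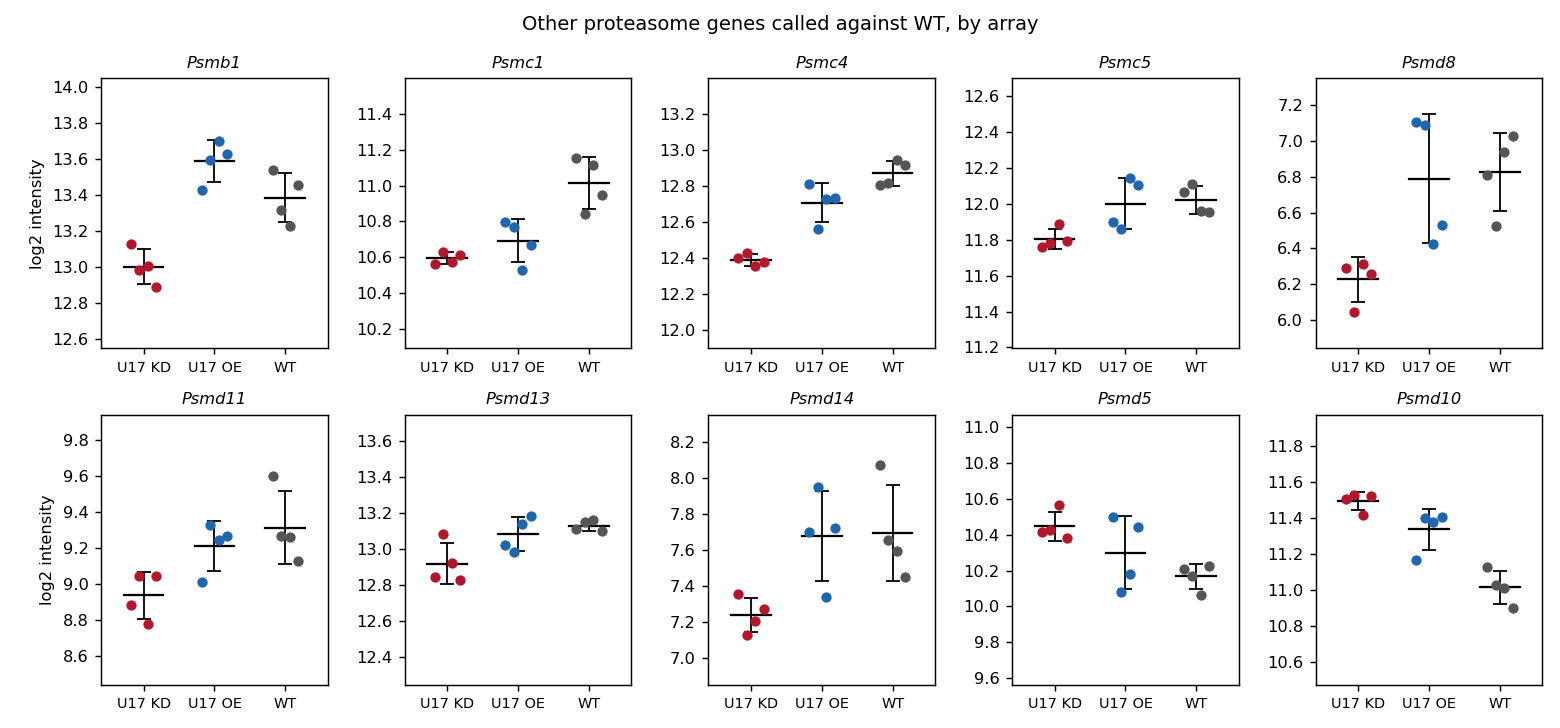
Log2 intensity on each array (points) with the group mean and SD (bars) for the 10 other proteasome genes called against WT, in U17 KD, U17 OE and WT. The U17 KD arrays do not overlap WT in any panel, and Psmc1 and Psmd10 separate both clones from WT.

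U17 KD and WT arrays did not overlap for 14 of the 37 proteasome genes, 37.8% against 44.5% of all genes tested. Other kept probes were compared with the chosen ones, 21 such probes of 15 genes, and 16 had the sign of the chosen probe in U17 KD minus WT. Of the 6 belonging to called genes, 4 were also called with the same sign and 0 with the opposite sign.

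The clones were compared with each other directly, since both comparisons above share the WT arrays. In U17 KD minus U17 OE, 12 of 37 proteasome genes were called, 32.4% against 33.1% of all genes, with 5 higher and 7 lower in U17 KD. None reached 2-fold, against 3.82% of all genes, and 8 of 37 had groups that did not overlap, against 31.7% of all genes. Psmb1 differed most, at -0.59 ± 0.08 (adjusted p = 1.72e-05), followed by Psmd8 at -0.56 ± 0.17 (adjusted p = 0.016). Psme2 was higher in U17 KD by 0.45 ± 0.09 (adjusted p = 0.00101) and Psmb10 by 0.34 ± 0.10 (adjusted p = 0.016). Psmc4 was lower in U17 KD, with a difference of -0.32 ± 0.07 (adjusted p = 0.00151). Psme1, Psme3, Psmc1, Psmc5, Psmd5, Psmd10, Psmd11 and Psmd13 were called in U17 KD against WT but not between the clones. A difference between the clones in the response of these genes is therefore not shown.

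Psmd14 differed by -0.44 and Psmb5 by -0.33, both lower in U17 KD, with adjusted p-values of 0.0278 and 0.0326. Psma5 was higher in U17 KD by 0.23 and Psmg2 lower, at -0.22, with adjusted p-values of 0.00986 and 0.0478. Psmb4, Psmd4 and Psmc3 were called at 0.22, 0.19 and -0.19, and are named after their values were seen. These 3 genes, Psma5, Psmb5 and Psmg2 were not called against WT in either clone. Of the 12 calls, Psmb1, Psme2 and Psmc4 held under every alternative run, and without U17 KD replicate 3 the count was 7. The called share of all genes was also lower without that array.

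Genes that work beside the proteasome changed in both directions. Of 7 measured proteasome-associated genes, Sem1, a small lid subunit, rose by 0.31 ± 0.09 in U17 KD (adjusted p = 0.0118) and Pomp, the maturation factor of the core, by 0.24 ± 0.07 (adjusted p = 0.0127). Uchl5, a deubiquitinase docked on the base, fell by 0.30 ± 0.09 (adjusted p = 0.0163). That is 2 of 7 higher and 1 lower in U17 KD, against 20.0% higher and 20.4% lower over all genes. In U17 OE, 1 of the 7 fell, against 6.37% of all genes. It was Zfand2a, a stress-induced proteasome-binding protein, at -0.38 (adjusted p = 0.0306).

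Of 7 measured genes that control proteasome transcription, Nfe2l2 and Stat3, both transcription factors, rose in U17 KD by 0.47 ± 0.11 and 0.44 ± 0.09 (adjusted p = 0.00277 and 0.000563). Nfyb, a subunit of NF-Y, fell by 0.35 ± 0.08 (adjusted p = 0.00208). The list thus had 2 of 7 higher and 1 lower, against 20.0% higher and 20.4% lower over all genes. Nfe2l1, which drives proteasome genes when the proteasome is inhibited, differed by 0.06 and was not called (adjusted p = 0.657). In U17 OE, limma called 0 of the 7, with 2 at an unadjusted p under 0.05.

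In the list of ubiquitin and shuttle factors, 2 of 7 fell in U17 KD, against 20.4% of all genes, and 3 of 7 in U17 OE, against 6.37% of all genes, with 0 higher in either clone. Uba6, an enzyme that activates ubiquitin, averaged 7.83 ± 0.24 in U17 KD, 8.07 ± 0.23 in U17 OE and 8.83 ± 0.10 in WT on the log2 scale (SD, n = 4 arrays). Its difference from WT was -1.0 ± 0.13 in U17 KD (adjusted p = 9.02e-06) and -0.75 ± 0.13 in U17 OE. Ubqln4, a shuttle that carries ubiquitinated proteins to the proteasome, differed from WT by -0.83 ± 0.11 in U17 KD (adjusted p = 9.36e-06) and by -0.56 ± 0.11 in U17 OE. Sqstm1, a receptor of selective autophagy, fell in U17 OE by 0.31 ± 0.07 (adjusted p = 0.0081).

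Class I antigen processing, which uses the peptides that the immunoproteasome and the Psme1 and Psme2 activator help to produce, was listed together with its inducers Irf1, Ifngr1 and Ifngr2. All 11 measured genes of that list were called in U17 KD, 8 higher and 3 lower, against 20.0% higher and 20.4% lower over all genes. Tap1, Erap1, Canx and Nlrc5, also listed, were detected on 0 arrays and not tested. Tapbp, which bridges the peptide transporter and class I molecules, averaged 9.29 ± 0.10 in U17 KD, 8.48 ± 0.26 in U17 OE and 7.99 ± 0.22 in WT (log2, SD, n = 4 arrays). It rose by 1.30 ± 0.13 in U17 KD (adjusted p = 3.14e-07) and by 0.49 ± 0.13 in U17 OE (adjusted p = 0.0197). Tap2, a chain of that transporter, rose by 1.04 ± 0.12 in U17 KD, and Irf1, a transcription factor induced by interferon, by 1.05 ± 0.13. Calr, Ifngr1, B2m, Tapbpl and Pdia3 rose in U17 KD by 0.36 to 0.78.

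The class I heavy chains went the other way. H2-D1 fell by 0.77 ± 0.08 in U17 KD (adjusted p = 6.5e-07). H2-K1 was called lower in U17 KD than in WT by limma (adjusted p = 0.00204). No U17 KD array reached the detection level, so the size of its fall is not given. Its WT mean was 1.47 times that level, offset included, a ratio that leaves out the spread of the WT arrays. Ifngr2, a chain of the interferon-gamma receptor, fell by 0.30 ± 0.11 (adjusted p = 0.0397). In U17 OE, 2 of the 11 rose, Tapbp and B2m, and 0 fell, against 6.48% higher and 6.37% lower over all genes. Blood cells can carry the immunoproteasome without induction, and 7 of 9 blood cell markers were undetected. Of the other 2, Cd14 was detected on all 12 arrays and was higher in U17 OE than in WT by 0.52 ± 0.10 (adjusted p = 0.00172), with 0.05 in U17 KD (adjusted p = 0.714), and Csf1r was detected on 9 arrays and called in neither clone. Their part in the class I and immunoproteasome values was not tested.

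**Figure D5:**
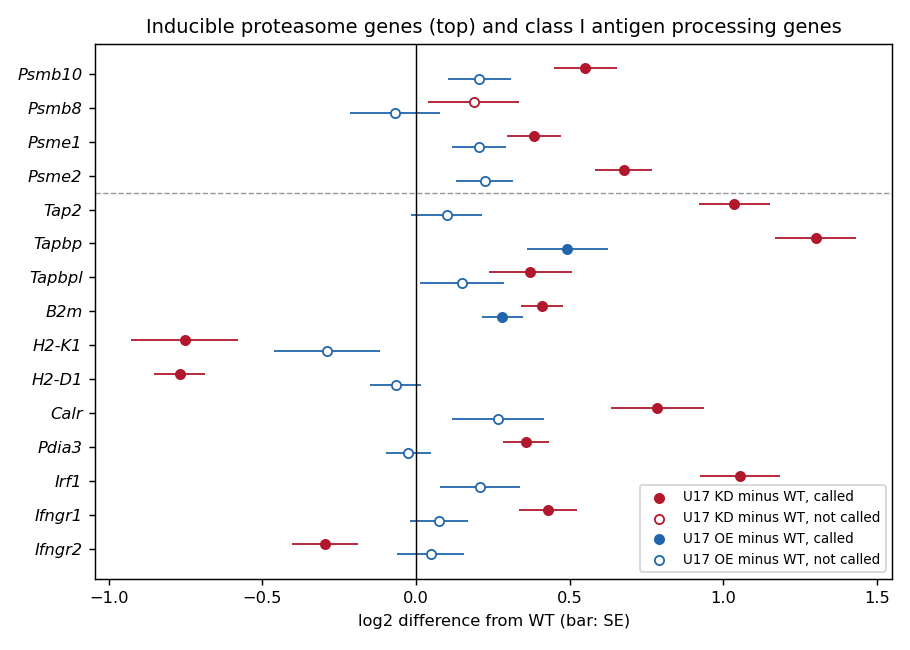
Log2 difference from WT with its standard error for the inducible proteasome genes (above the dashed line) and class I antigen processing genes, in U17 KD (red) and U17 OE (blue), with filled points for called differences. Tapbp, Irf1 and Tap2 lie above 1 in U17 KD, H2-D1 and H2-K1 lie below 0, and the plotted H2-K1 point is the fitted value of a gene below the detection level in U17 KD.

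The 10 proteasome genes without a kept probe were Psma1, Psma3, Psma6, Psmb11, Psmc6, Psmd3, Psmd6 and Psmg4, detected on 0 arrays, and Psma8 and Psmb9, detected on 2 each. Psma8 is a testis form and Psmb11 a thymus form, while Psma1, Psma3, Psma6, Psmc6, Psmd3 and Psmd6 encode standard subunits of the particle. No level is inferred from a probe below detection.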

How the data were processed

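RNA of 12 arrays was grouped by sample title into U17 KD, U17 OE and WT, 4 each. Per the labels' protocols, cDNA synthesis used oligo-dT and the label was biotin. GenomeStudio 2010 is listed in the submitters' processing notes. Linear probe intensity was deposited by the authors in a normalized, background-subtracted table, in which 37.7% of the values of WT replicate 1 are below 0. How the arrays were normalized, and the genome build, are not given in the sources used here. A second deposited table holds, per its file header, a detection p-value and the unnormalized intensity of each probe. Only its WT columns were used, since no label names the arrays of the remaining 40 of 48.

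The WT detection p-values gave the mean (0.492) and SD (15.8) of the background, used for normexp on all 12 arrays, followed by an offset of 16 and log2. A probe was kept where it reached 30.5, the level that matches a detection p under 0.05 on WT arrays, on at least 4 arrays (16706 of 45281). Of all probes, 34885 carry 1 gene symbol, and the other 10396 are not named here. limma 3.58.1 in R 4.3.3 fitted 1 model of 3 groups with a mean-variance trend and 9 residual degrees of freedom. Tests were two-sided, and Benjamini-Hochberg adjustment ran across all kept probes within a comparison. The 95% intervals use the SE and those residual degrees of freedom. The fitting code was tested on simulated data. The number of arrays limits the precision.

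No replicate block was used, since the labels do not say that a replicate number marks a shared batch. Same-numbered arrays of different groups did not deviate together (correlation of deviations from the group means -0.382 to 0.0891). Members and gene lists were chosen with earlier results of these data known. Named genes were the immunoproteasome subunits, their constitutive counterparts, the activators, and in each role group every gene called against WT or, where there was none, the gene with the largest difference. Of the lists of associated genes only called genes were named, with Nfe2l1 added after its value was seen. Promoter windows came from RefSeq (GRCm38.p6), with 39 of 47 proteasome genes matched by symbol. The 22 alternatives changed 1 choice each, and 12 of them left out 1 array.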

Additional observations from a re-analysis of the deposited data

Results flagged for a closer look

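Among 111 groups of 4 arrays (the 37 proteasome genes in 3 groups), 4 held an array whose gap to the nearest of the others passed Dixon's 95% critical value for 4 samples, and chance alone gives about 1 in 20. Psma7, an alpha ring gene, had a log2 intensity of 13.23 in WT replicate 4, against 13.04 to 13.07 in the other WT arrays. Psmb10 had 10.45 in U17 OE replicate 4, against 10.12 to 10.17 in its group mates. Psmb8 had 5.61 in WT replicate 3, against 5.44 to 5.45, close to the detection level. Psmd10 had 11.17 in U17 OE replicate 1, against 11.38 to 11.40. No array held more than 1 of the 4 values.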

How the results depend on the processing

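The number of proteasome genes called in U17 KD against WT was 14, and leaving out 1 array gave 11 to 17. In U17 OE against WT it was 2, with 1 to 5 when 1 array was left out, 4 with quantile normalization added, and 1 without a filter on detection, with only the arrays of the compared groups, or with the replicate block. In U17 KD against U17 OE it was 12, with 7 to 13 when 1 array was left out and 7 without the mean-variance trend. The called share of all genes moved too when 1 array was left out. In each comparison it was below the main run at the lowest count and above it at the highest. With quantile normalization added, the U17 OE share of all genes stayed near that of the main run. With the replicate block, 13 genes were called in U17 KD against WT and 9 in U17 KD against U17 OE, and only 1 of 12 arrays correlated best with its own number. The median log2 difference from WT ranged from -0.0459 to -0.0189 in U17 KD and from -0.0243 to 0.0108 in U17 OE when 1 array was left out, and in U17 KD minus U17 OE from -0.0799 to -0.0360. The U17 OE median was 0.0373 with the probe of lowest mean per gene. Of 28 called gene values, 13 stayed called under all 22 alternatives and 15 were lost under at least 1. Of 44 uncalled values, 13 were called under at least 1. Signs turned for uncalled values only. With the probe of lowest mean, U17 OE minus WT was 0.0332 for Psmb6, 0.0390 for Psmc5 and 0.12 for Psmd14, and U17 KD minus WT was -0.17 for Psmb7. With 1 array left out, U17 OE minus WT ranged from -0.0243 to 0.0592 for Psmc3, from -0.0686 to 0.0267 for Psmc5, from -0.11 to 0.11 for Psmd14 and from -0.14 to 0.0827 for Psmd8, while U17 KD minus WT ranged from -0.0365 to 0.0188 for Psmd4 and from -0.0689 to 0.0103 for Psmg2. The cause was not tested. Psmb8 was not tested where detection on all 12 arrays was required. Probes near the detection level limit what can be said of Psmb8, Psmb9 and Psmd8.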
